A study of Homo sapiens with 6 samples.

Results

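Of the 12760 genes in the expression table, 10 were chosen by name as subunits and regulators of NF-kB, and all 10 were found. They are the subunit genes NFKB1, NFKB2, RELA, RELB and REL, the inhibitor gene NFKBIA, the receptor gene CD40, the adaptor gene TRAF2 and the ubiquitin ligase genes BIRC2 and BIRC3. RNA was sequenced from MM.1S, an established human line of multiple myeloma, the plasma cell cancer. The WT group held 3 libraries of MM.1S cells kept in DMSO, and the LenR group held 3 libraries of MM.1S cells grown in lenalidomide, starting at 10 nM with the dose raised 10-fold each month for 3 months. The genotype is labelled WT in both groups. Whether the drug was still present at harvest and whether the LenR libraries come from separate selections are not given in the labels, so exposure and selection cannot be told apart, and the p-values measure only the spread between these cultures.

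NF-kB is a family of dimeric transcription factors that wait in the cytoplasm until a signal releases them. In the canonical arm, the IKK kinases mark the inhibitor IkB-alpha, the product of NFKBIA, for destruction, which frees dimers of RelA, c-Rel and the processed product of NFKB1. In the non-canonical arm, receptors such as CD40 draw TRAF2, TRAF3 and the cIAP ligases encoded by BIRC2 and BIRC3 away from the kinase NIK (MAP3K14), and NIK then drives the processing of the NFKB2 product, the partner of RelB. Myeloma cells often rely on NF-kB, and mutations of the TRAF, cIAP, CD40 and NIK genes occur in this cancer.

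Expression was given as FPKM, the fragments per kilobase of gene scaled to the size of the library. Reads recovered from the FPKM steps came to between 14500140 and 17387914 per library. On the second principal component (26.8% of the variance), WT replicate 3 (14.0) and LenR replicate 2 (13.7) lay at one end. LenR replicate 3 (-12.7) lay at the other, and the remaining libraries between -6.62 and -2.62. WT replicates 1 and 2 were much alike (median chi-square of reads per gene 1.17 times its expected value, against 3.89 for the next closest pair), but their mean chi-square of 1.84 was above that of sampling alone, and they were kept as separate libraries. Of 9 plasma cell markers 5 were higher in LenR and none lower, beside 8.57% higher and 6.57% lower of all genes tested. The summed FPKM of the 9 ranged from 3918 to 4534 in WT and from 4617 to 5550 in LenR. JCHAIN, the largest part of that sum (2233 ± 314 FPKM in WT, 2602 ± 424 in LenR), overlapped between the groups and did not pass (limma adjusted p = 0.437). The part of the shift in plasma cell markers in the results on the NF-kB genes was not tested. None of 5 B cell markers had a row analysed here. The 2 of 6 T and NK cell markers with a row summed to between 3.71 and 4.11 FPKM in WT and between 3.07 and 3.87 in LenR, and CD68, the only 1 of 6 myeloid markers with a row, to between 12.9 and 16.6 and between 17.3 and 19.3. Of 5 epithelial and stromal markers 1 had a row, with between 0.254 and 0.265 FPKM in WT and between 0.289 and 0.429 in LenR, and of 3 erythroid markers 1, with between 5.83 and 7.11 and between 5.55 and 8.31.

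The receptor CD40 rose and the cIAP gene BIRC3 fell in LenR, while the 4 tested subunit genes, NFKBIA, TRAF2 and BIRC2 did not pass the test. Thus 1 of 9 tested members was higher and 1 lower in LenR, by limma on log2(FPKM + 1) with Benjamini-Hochberg adjusted p under 0.05. Of all 11276 genes tested, 15.1% passed this threshold, 8.57% as higher and 6.57% as lower. The WT and LenR values did not overlap for 4 of the 9 members (CD40, BIRC3, NFKBIA and TRAF2), against 34.5% of all genes tested. REL, with a mean under 1 FPKM, was not tested. The median log2 fold change of the 9 members was 0.026 and that of all genes tested was -0.002.

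**Figure D1:**
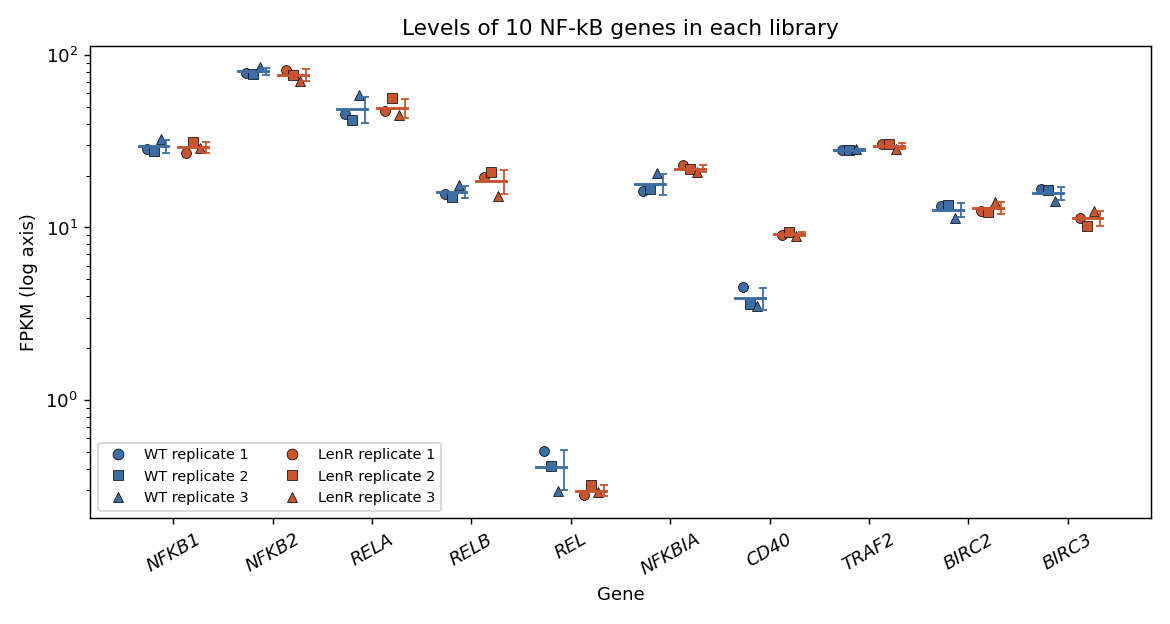
FPKM (log axis) of the 10 genes in each library, WT in blue and LenR in orange, with marker shapes for replicates 1 to 3, horizontal lines for group means and bars for the SD. CD40 lies between 3.52 and 4.52 FPKM in WT and between 8.95 and 9.43 in LenR, BIRC3 is lower in all LenR libraries, and REL stays under 1 FPKM in all 6.

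CD40 encodes a receptor of the TNF receptor family on B lineage cells that feeds both arms of NF-kB (chromosome 20, 46118272 to 46129863, GRCh38). It measured 4.52, 3.60 and 3.52 FPKM in WT replicates 1 to 3 and 9.05, 9.43 and 8.95 FPKM in LenR replicates 1 to 3. Every LenR library lay above every WT library, and the LenR libraries lay closer together than the WT libraries. The mean rose from 3.88 ± 0.558 to 9.14 ± 0.251 FPKM (SD, n = 3 per group), a 2.36-fold difference. On the log2(FPKM + 1) scale, where the added 1 makes changes of low genes look smaller, the log2 fold change was 1.06 (SE 0.088, 95% interval 0.86 to 1.27, limma adjusted p = 0.000256). The values rested on 94 to 145 reads per WT library and 241 to 286 per LenR library. In bulk RNA, more CD40-bearing cells and more CD40 RNA per cell cannot be told apart. CD40 remained past the threshold in all 20 alternative fits, with adjusted p up to 0.00379.

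TRAF2 is the adaptor that binds CD40 and carries the cIAP ligases to it. Its transcript measured 28.3, 28.1 and 28.3 FPKM in WT and 30.6, 30.4 and 28.3 FPKM in LenR. LenR replicate 3, at 28.33 FPKM, lay just above the highest WT library, at 28.31 FPKM, so the groups did not overlap by a narrow margin. The log2 fold change of TRAF2 was 0.07 (95% interval -0.07 to 0.22, limma adjusted p = 0.5). The ratio of CD40 to TRAF2 FPKM within a library, which does not depend on how libraries are scaled, was 0.137 ± 0.019 in WT and 0.307 ± 0.010 in LenR. Per length, the CD40 transcript was the scarcer of the pair in all 6 libraries. The pairs of genes set against each other here and below were partly chosen after their values were seen, and their ratios are given without a test.

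BIRC3 and BIRC2 encode the ligases cIAP2 and cIAP1, which add ubiquitin chains to RIPK1 and to NIK. They are neighbours on chromosome 11 (BIRC3 at 102317450 to 102339403, BIRC2 at 102347211 to 102378670, GRCh38), both on the plus strand and 7807 bases apart. BIRC3 is also known as a target gene of NF-kB. The bases before the start of each gene, and of NFKBIA, which NF-kB also switches on, are shown 5′ to 3′, ending at the earliest annotated start, because the 3 windows differ in their matches to the kappaB consensus. Capitals mark the matches on either strand. The sequences are those of RefSeq on GRCh38.p14, at chr11:102317234-102317449 (plus strand) for BIRC3, chr11:102346964-102347210 (plus strand) for BIRC2 and chr14:35404750-35404999 (minus strand) for NFKBIA.
BIRC3: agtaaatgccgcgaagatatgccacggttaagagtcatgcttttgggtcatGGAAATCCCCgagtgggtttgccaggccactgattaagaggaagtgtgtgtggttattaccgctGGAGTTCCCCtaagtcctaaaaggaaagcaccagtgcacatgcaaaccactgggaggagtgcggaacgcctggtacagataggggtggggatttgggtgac
BIRC2: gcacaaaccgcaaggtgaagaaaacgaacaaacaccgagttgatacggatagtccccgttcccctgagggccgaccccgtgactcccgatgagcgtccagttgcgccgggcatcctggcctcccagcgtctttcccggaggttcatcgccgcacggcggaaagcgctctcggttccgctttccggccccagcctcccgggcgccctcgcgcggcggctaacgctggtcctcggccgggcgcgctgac
NFKBIA: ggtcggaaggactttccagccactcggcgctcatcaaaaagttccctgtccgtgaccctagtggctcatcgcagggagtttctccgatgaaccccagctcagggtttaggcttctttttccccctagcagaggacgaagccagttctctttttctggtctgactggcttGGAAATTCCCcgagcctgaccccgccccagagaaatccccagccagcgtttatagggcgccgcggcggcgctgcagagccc

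The BIRC3 window held 2 matches and the NFKBIA window 1, all read on the strand opposite to the gene, and the BIRC2 window held none. The consensus was searched on both strands of the 250 bases before each RefSeq start, and overlapping matches were counted at each position. A start window was found for 8 of the 10 members, with 13 windows in all, while CD40 and RELB had no entry. Matches lay in 6 of the 13 windows, against 12% of the 12209 windows of genes tested here and 9.96% of all 35116 windows. By gene, they lay in 5 of the 8 (REL, NFKB1, NFKB2, NFKBIA and BIRC3), and no share by gene was computed for the other genes. The windows of RELA, TRAF2 and BIRC2 held no such letters. RefSeq starts can lie inside a gene as GENCODE draws it. The REL match and all those of NFKB2 lie past the earliest GENCODE start of the gene, and the window before the earliest start of NFKB2 held none. A match is a description of the sequence and not a measured binding site.

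The matches in the windows of REL, NFKB1 and NFKB2 are shown with flanking bases, since these 3 subunit genes carry the consensus. The transcripts of NFKB1 and NFKB2 were not called between the groups, and REL was not tested. The matches are given on the plus strand of GRCh38.p14, at chr2:60881518-60881546 for REL, chr4:102501300-102501329 for NFKB1, and, for NFKB2 in order, chr10:102394462-102394490, chr10:102394490-102394519, chr10:102395519-102395548 and chr10:102395674-102395703.
REL: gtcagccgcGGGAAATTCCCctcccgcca
NFKB1: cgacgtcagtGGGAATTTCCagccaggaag
NFKB2 (a): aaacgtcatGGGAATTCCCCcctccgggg
NFKB2 (b): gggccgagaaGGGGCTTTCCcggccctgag
NFKB2 (c): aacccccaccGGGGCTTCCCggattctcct
NFKB2 (d): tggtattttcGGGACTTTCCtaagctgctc

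BIRC3 measured 16.8, 16.4 and 14.2 FPKM in WT replicates 1 to 3 and 11.3, 10.2 and 12.4 FPKM in LenR replicates 1 to 3. All LenR libraries lay below all WT libraries, with WT replicate 3 and LenR replicate 3 nearest to each other. The mean fell from 15.8 ± 1.39 to 11.3 ± 1.10 FPKM (SD, n = 3 per group), with a log2 fold change of -0.45 (SE 0.092, 95% interval -0.67 to -0.24, limma adjusted p = 0.0144). Between 1118 and 2039 reads lay behind each value. The limma adjusted p rose to 0.0653 when WT replicate 1 was left out, to 0.0617 for WT replicate 2, to 0.0616 for LenR replicate 1 and to 0.0622 with WT replicates 1 and 2 averaged, which ended the call, while the log2 fold change stayed between -0.52 and -0.39 in all 20 alternative fits.

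BIRC2, the neighbour and paralog of BIRC3, did not pass. Its level was 13.3, 13.5 and 11.3 FPKM in WT and 12.4, 12.3 and 14.1 FPKM in LenR, with the groups overlapping. The log2 fold change of BIRC2 was 0.03 (95% interval -0.18 to 0.23, limma adjusted p = 0.895). The FPKM ratio of BIRC3 to BIRC2 within a library was 1.26, 1.21 and 1.26 in WT and 0.913, 0.830 and 0.879 in LenR. In every WT library BIRC3 was the more abundant transcript of the pair per length, and in every LenR library BIRC2 was. This order depends on the gene lengths used, 6911 bases for BIRC3 and 4265 for BIRC2. By reads, BIRC3 lay above BIRC2 in every library of both groups.

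**Figure D2:**
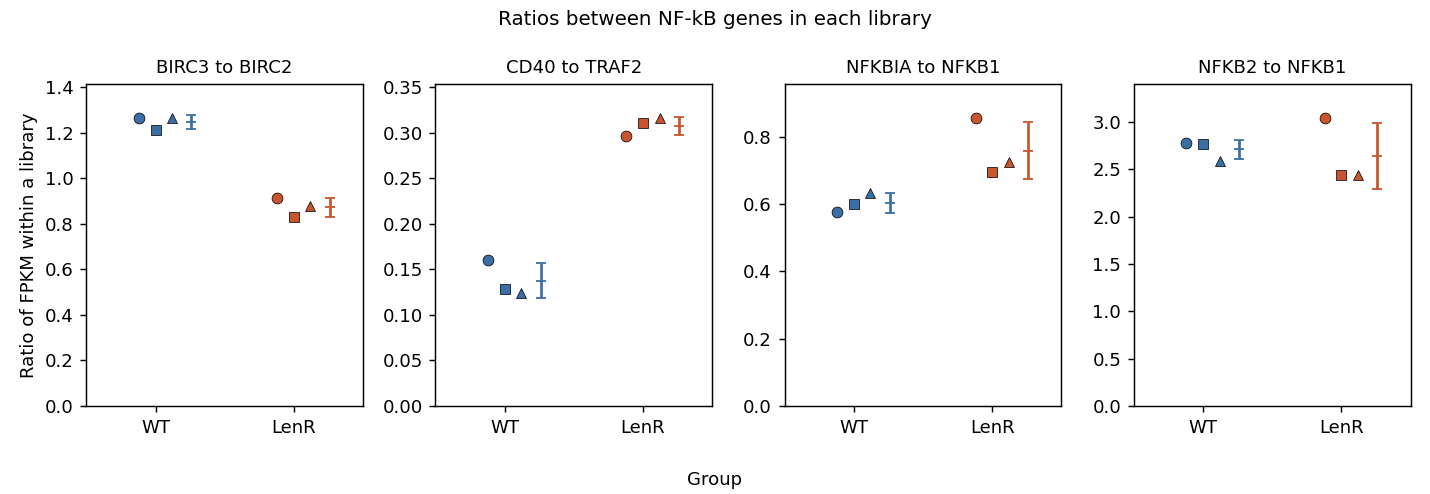
Ratios of FPKM between pairs of genes within each library, with points for replicates 1 to 3 of WT (blue) and LenR (orange) and bars for the mean and SD. BIRC3 to BIRC2 went from 1.247 ± 0.029 to 0.874 ± 0.042, CD40 to TRAF2 went from 0.137 to 0.307, NFKBIA to NFKB1 from 0.603 to 0.759, and NFKB2 to NFKB1 overlapped between the groups.

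The subunit genes were led by NFKB2, whose product is the precursor p100 and, once processed, p52 of the non-canonical arm. NFKB2 measured 78.9, 77.0 and 84.6 FPKM in WT and 82.2, 76.6 and 70.3 FPKM in LenR, and the groups overlapped. Its log2 fold change was -0.07 (95% interval -0.26 to 0.12, limma adjusted p = 0.638). Leaving out LenR replicate 1 gave -0.12, LenR replicate 3 -0.01 and WT replicate 3 -0.03, none past the threshold. RELB, the partner of p52, measured 15.6, 15.1 and 17.6 FPKM in WT and 19.7, 20.9 and 15.2 FPKM in LenR. LenR replicates 1 and 2 thus lay above all WT libraries, whereas LenR replicate 3 lay within the WT range. The log2 fold change of RELB was 0.19 (95% interval -0.09 to 0.47, limma adjusted p = 0.357). Single libraries moved it by over 1.5 times in both directions, to 0.10 without LenR replicate 2 (limma adjusted p = 0.631) and to 0.32 without LenR replicate 3 (0.0531).

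RELA encodes p65, the main activating subunit of the canonical arm. It measured 45.6, 42.1 and 58.3 FPKM in WT and 47.1, 56.3 and 44.7 FPKM in LenR. The high values were those of WT replicate 3 and LenR replicate 2, the libraries at one end of the second principal component. The 4 others lay between 42.1 and 47.1 FPKM. The log2 fold change of RELA was 0.03 (95% interval -0.29 to 0.34, limma adjusted p = 0.929), the widest interval among the members. An antisense gene, AP001362.2, overlaps RELA, and reads of the pair cannot be told apart, as the strand setting is not given in the sources used here.

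NFKB1, which encodes the precursor p105 and the canonical subunit p50, showed the same split of libraries. It measured 28.4, 27.9 and 32.6 FPKM in WT and 27.0, 31.4 and 28.8 FPKM in LenR, again highest in WT replicate 3 and LenR replicate 2. Its log2 fold change was -0.03 (95% interval -0.23 to 0.18, limma adjusted p = 0.890). BIRC2 was lowest in those libraries, at 11.3 and 12.3 FPKM against 12.4 to 14.1 in the 4 others. Of all genes tested, 14% were highest and 15.3% lowest in this pair of libraries. For the members, the cause of this split was not tested.

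REL, the gene of c-Rel, a subunit of mature B and T cells, was the scarcest member. It measured 0.510, 0.416 and 0.297 FPKM in WT and 0.281, 0.323 and 0.292 FPKM in LenR, on 32 to 70 reads per library. WT replicate 3 fell within the LenR range, and the groups overlapped. The difference in mean log2(FPKM + 1) was -0.11, with an adjusted p of 0.289 in the limma fit without a filter on low values.

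Summed over the 5 subunit genes, transcript levels were 175 ± 16.3 FPKM in WT and 174 ± 13.4 FPKM in LenR. NFKB2 made up 45.9% ± 1.93 of this sum in WT and 44.0% ± 2.68 in LenR, and RELA 27.7% ± 2.20 and 28.4% ± 1.83. NFKB1 held 16.9% ± 0.18 and 16.8% ± 1.38. RELB held 9.20% ± 0.111 in WT and 10.7% ± 0.978 in LenR, with all LenR libraries (9.53% to 11.3%) above all WT libraries (9.08% to 9.30%), a difference chosen for mention after its values were seen and not tested. REL held under 1% of the sum in all libraries. The depth-free ratio of NFKB2 to NFKB1 was 2.71 ± 0.103 in WT and 2.64 ± 0.347 in LenR.

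NFKBIA encodes IkB-alpha, the inhibitor that NF-kB itself induces and that ends the canonical response. It measured 16.4, 16.7 and 20.7 FPKM in WT replicates 1 to 3 and 23.1, 21.9 and 20.9 FPKM in LenR replicates 1 to 3. The groups did not overlap, but WT replicate 3 lay next to LenR replicate 3. The log2 fold change was 0.29 (SE 0.097, 95% interval 0.06 to 0.51), with an unadjusted p of 0.0197 and a limma adjusted p of 0.0955, so NFKBIA did not pass. It passed without WT replicate 3 (log2 fold change 0.39, adjusted p = 0.015), without WT replicate 3 and LenR replicate 2 (0.39, adjusted p = 0.0188) and with these 2 libraries given a term of their own (0.29, adjusted p = 0.0275). The ratio of NFKBIA to NFKB1 was 0.576, 0.6 and 0.634 in WT and 0.855, 0.697 and 0.726 in LenR, without overlap. That of NFKBIA to RELA, at 0.359, 0.397 and 0.355 in WT and 0.490, 0.389 and 0.467 in LenR, did overlap.

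**Figure D3:**
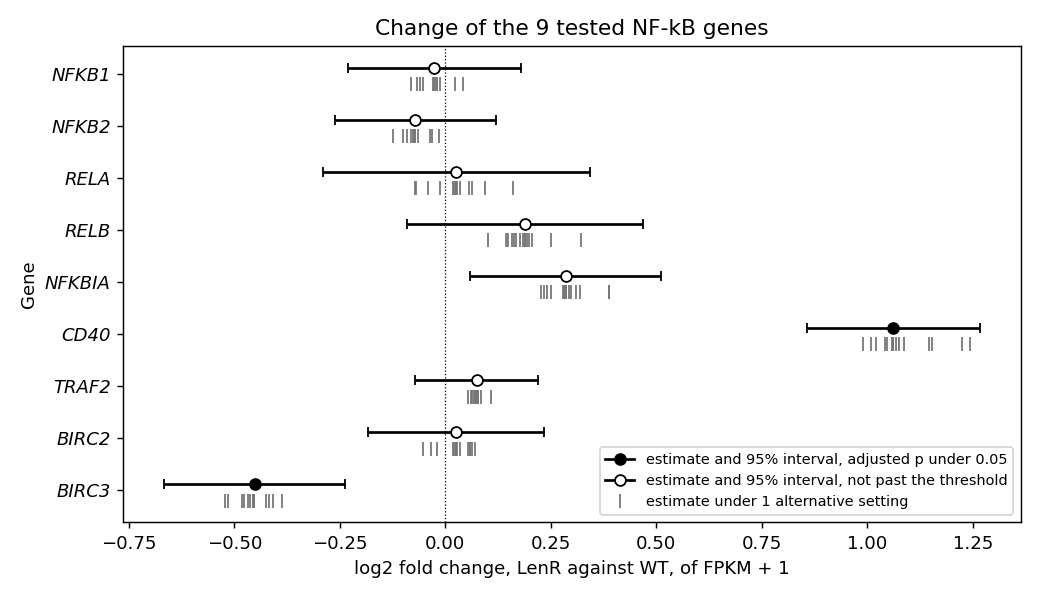
Log2 fold change of FPKM + 1 in LenR against WT for the 9 tested genes, with 95% intervals from limma, filled points for adjusted p under 0.05 and grey ticks for each of the 20 alternative fits. CD40 (1.06) and BIRC3 (-0.45) are filled, NFKBIA (0.29) lies above 0 without passing, and the ticks of NFKB1, RELA and BIRC2 fall on both sides of 0.

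By level per length, the order in WT was NFKB2, RELA, NFKB1, TRAF2, NFKBIA, RELB, BIRC3, BIRC2, CD40 and REL. The ranges over 3 WT libraries overlapped between NFKB1 and TRAF2, NFKBIA and RELB, and RELB and BIRC3, but NFKBIA lay above RELB in each of the 3, while the other pairs changed order between libraries. In LenR, TRAF2 stood before NFKB1 and BIRC2 before BIRC3, each pair with overlapping ranges, and NFKBIA and RELB overlapped as well. Within the LenR libraries, BIRC2 lay above BIRC3 and NFKBIA above RELB in all 3, whereas TRAF2 lay above NFKB1 only in replicate 1. CD40 remained ninth in both groups, although its distance to BIRC3 shrank from 15.8 against 3.88 FPKM to 11.3 against 9.14 FPKM. Among all genes of the table, the mean level of NFKB2 lay at the 92.9th percentile, that of CD40 at the 39.9th and that of REL at the 3.31st.

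Of the 8301 candidates (mean 5 FPKM or more), the 5 whose pattern over the 6 libraries was most like that of CD40 were GPC4 (Pearson r = 0.998 on log2(FPKM + 1)), TCEAL3 (0.997), ENDOD1 (0.996), GID4 (0.995) and NREP (0.995). The coefficients rest mainly on the difference between WT and LenR, since these libraries form 2 groups. GPC4, a glypican of the cell surface, went from 6.02 ± 0.428 to 10.7 ± 0.225 FPKM (limma adjusted p = 0.000381). ENDOD1, at a log2 fold change of 0.15, did not pass (limma adjusted p = 0.119), so its likeness to CD40 lies in the shape of its pattern and not in its size.

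Beyond the members, 114 other genes of the NF-kB pathway were listed by role, of which 76 had a row and 73 were tested. Of the 73, 7 rose and 12 fell (26%, beside 15.1% of all genes tested), with a median log2 fold change of -0.006 and 36 genes above 0. None of 14 genes of the IKK complex and upstream kinases passed by limma (median -0.062) or by voom on the recovered reads. An unadjusted limma p under 0.05 was found for 5, 4 of them lower in LenR. The share of all genes at that unadjusted level was not computed. In the fit that gave WT replicate 3 and LenR replicate 2 their own term, 4 of the 14 passed, beside 3163 of all 11276 genes tested. MAP3K14, the gene of NIK, stood at 16.4 ± 1.64 FPKM in WT against 16.6 ± 2.43 FPKM in LenR, with a difference of 0.01 on the log2 scale (limma adjusted p = 0.975), on either side of 0 among the alternatives. TRAF3, the brake that holds NIK for destruction, measured 8.21 ± 0.696 and 8.63 ± 0.507 FPKM (0.07, adjusted p = 0.649).

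Of 5 other IkB genes, NFKBIZ alone passed (20%, beside 15.1% of all genes tested). This gene of the nuclear IkB-zeta fell by 0.40 on the log2 scale, from 5.54 ± 0.202 to 3.95 ± 0.033 FPKM (limma adjusted p = 0.00335), with 5.31, 5.66 and 5.66 FPKM in WT and 3.91, 3.97 and 3.96 FPKM in LenR. NFKBIE, which encodes the cytoplasmic IkB-epsilon, differed by 0.09 on that scale (limma adjusted p = 0.556). Among 14 tested TRAF, ligase and adaptor genes, SHARPIN, a subunit of the linear ubiquitin ligase, rose from 22.3 ± 2.09 to 38.0 ± 5.07 FPKM (0.74, limma adjusted p = 0.00382), with MAF1 overlapping it on the other strand.

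The list drawn as deubiquitinases and other brakes also holds genes not established as brakes, TRAF3IP3 among them. Of its 11 tested genes, 3 fell and none rose (27.3%), and 10 lay below 0. Of all genes tested, 15.1% passed in either direction and 6.57% as lower. The median log2 fold change of the list was -0.152, against -0.002 for all genes tested. TNIP1, a partner of the deubiquitinase A20, fell from 60.6 ± 4.31 to 38.5 ± 4.26 FPKM (log2 fold change -0.64, limma adjusted p = 0.00347). NLRC5, better known as the activator of MHC class I genes, fell as well (-0.53, adjusted p = 0.00558), and so did TRAF3IP3 (-0.31, adjusted p = 0.016). TRAF3IP3 lost its call when WT replicate 1 (0.093), WT replicate 2 (0.0616) or LenR replicate 1 (0.0604) was left out, and C1orf74 overlaps it on the other strand. TNFAIP3, the gene of A20 itself, measured 83.0 ± 4.87 and 78.0 ± 7.87 FPKM (-0.09, adjusted p = 0.582).

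Receptors and ligands moved in both directions. Of 9 tested receptors, 2 rose and 1 fell (33.3%, beside 15.1% of all genes tested). TNFRSF21, a death receptor family member, went from 1.92 ± 0.327 to 3.40 ± 0.118 FPKM (log2 fold change 0.60, limma adjusted p = 0.00386), and TNFRSF1B, the TNF receptor TNFR2, from 13.9 ± 1.23 to 18.5 ± 0.994 FPKM (0.39, adjusted p = 0.0144). IL1RAP, the shared chain of interleukin-1 receptors, fell from 1.44 ± 0.014 to 0.870 ± 0.146 FPKM, near the filter of 1 FPKM (-0.39, adjusted p = 0.0141). Leaving out 1 library ended both of these calls for WT replicate 1 (0.0698 for TNFRSF1B and 0.0564 for IL1RAP), WT replicate 2 (0.0694 and 0.0525) and LenR replicate 1 (0.0602 and 0.0534), and that of IL1RAP ended when WT replicate 3 and LenR replicate 2 were both left out (0.0517).

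Of 4 tested ligands, CD70 (0.66, limma adjusted p = 0.00257) and TNFSF13, which encodes the plasma cell survival factor APRIL (0.58, adjusted p = 0.046), rose, and TNFSF9, the ligand of 4-1BB, fell (-0.77, adjusted p = 0.00303). The share of ligands called was 75% of only 4, beside 15.1% of all genes tested. CD70 measured 14.9, 16.4 and 15.9 FPKM in WT and 28.9, 24.96 and 22.8 FPKM in LenR. The limma adjusted p of TNFSF13 was past 0.05 when WT replicate 1 (0.148) or 2 (0.128) or LenR replicate 2 (0.0784) or 3 (0.0839) was left out, with the same FPKM total (0.059) and with quantile normalization (0.0544). A read-through gene, TNFSF12-TNFSF13, shares its exons.

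Among 16 tested target genes, ICAM1 rose and GADD45B and KLF6 fell (median 0.091). The share called, 18.75%, was near the 15.1% of all genes tested. ICAM1, an adhesion molecule, measured 2.19, 2.29 and 3.37 FPKM in WT and 8.61, 9.88 and 7.88 FPKM in LenR, a 3.36-fold difference of the means (log2 fold change 1.45, limma adjusted p = 0.000386). All LenR libraries lay above all WT libraries. AC011511.2 and AC011511.5 overlap ICAM1 on the other strand, and the strand setting is not given. Of other genes named here, REL, IL1RAP, IL2RG and TNFRSF1B are overlapped on their own strand by AC010733.2, AC108747.1, AL590764.2 and MIR7846. GADD45B (-0.36, adjusted p = 0.0374) and KLF6 (-0.26, adjusted p = 0.0327) both lost their calls when the libraries were scaled to the same FPKM total (0.0668 and 0.0677). Leaving out WT replicate 1 (0.079 and 0.165 as limma adjusted p), WT replicate 2 (0.0968 and 0.14), LenR replicate 1 (0.111 and 0.102) or LenR replicate 3 (0.0891 and 0.0625) ended both calls, as did averaging WT replicates 1 and 2 (0.086 and 0.15), and that of GADD45B ended without WT replicate 3 (0.0802) or with quantile normalization (0.0907). The same averaging ended the calls of TRAF3IP3 (0.0733), TNFRSF1B (0.0675), IL1RAP (0.0507) and TNFSF13 (0.137).

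Of the 11 genes of an NF-kB index used in myeloma, 4 (BIRC3, NFKB2, RELB and NFKBIA) are members. In the index 4 genes fell and 1 rose (45.5%, beside 15.1% of all genes tested, where 6.57% fell and 8.57% rose). CD74 and WNT10A, which fell, lie among neighbours with median log2 fold changes of -0.62 and -0.68. CD74, the MHC class II invariant chain, fell from 580 ± 44.5 to 371 ± 29.1 FPKM (log2 fold change -0.64, limma adjusted p = 0.00401). IL2RG, the common gamma chain of cytokine receptors, fell from 146 ± 6.18 to 100 ± 3.34 FPKM (-0.54, adjusted p = 0.00203), and WNT10A, a Wnt ligand, from 56.3 ± 8.23 to 34.7 ± 6.14 FPKM (-0.69, adjusted p = 0.0183). WNT10A lost its call when LenR replicate 1 was left out (limma adjusted p = 0.0612). PLEK, the gene of pleckstrin, named after its value was seen, rose (0.37, adjusted p = 0.00553). Over the index, the median log2 fold change was -0.091, with 4 genes above 0 and 7 below.

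**Figure D4:**
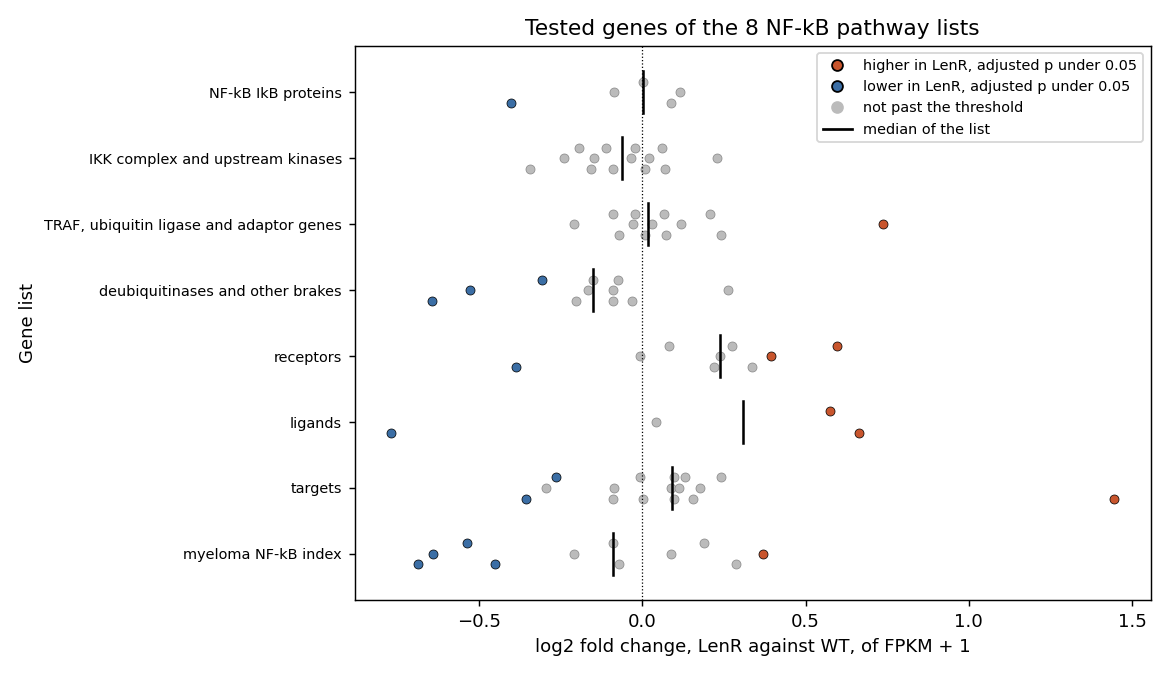
Log2 fold change of FPKM + 1 in LenR against WT for the tested genes of the 8 pathway lists, 1 gene not drawn, orange for higher and blue for lower at adjusted p under 0.05, grey for genes that did not pass, and black lines for list medians. No gene of the IKK list is coloured, and ICAM1 (1.45) and TNFSF9 (-0.77) lie at the ends of those drawn.

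Around WNT10A, TNIP1, CD74 and SHARPIN, most tested genes on the same stretch of chromosome lay to the same side. The 41 tested genes within 5 Mb of WNT10A lay at a median log2 fold change of -0.68 with none above 0, the 34 around TNIP1 one of -0.64, the 36 around CD74 one of -0.62, and the 58 around SHARPIN one of 0.49 with 57 above 0. TNIP1 and CD74 lie within 5 Mb of each other on chromosome 5, so their windows share genes and are not separate stretches. For 14 other called pathway genes, neighbour medians lay between -0.087 and 0.053. Neighbours of the 10 members had medians between -0.046 and 0.078, with -0.01 over 59 genes for CD40 and 0.08 over 13 genes for BIRC3.

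**Figure D5:**
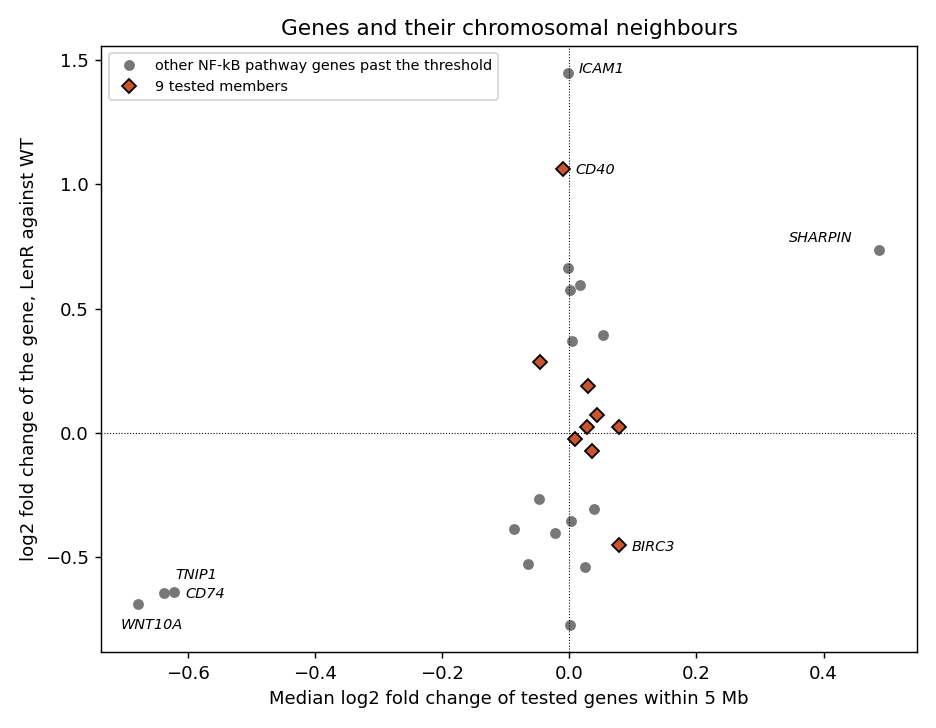
Log2 fold change of each gene against the median of the tested genes within 5 Mb, for the 9 tested members (orange diamonds) and 18 other pathway genes past adjusted p 0.05 (grey). WNT10A, TNIP1 and CD74 at lower left and SHARPIN at right lie among neighbours that moved the same way, and CD40, BIRC3 and ICAM1 lie near 0 on the horizontal axis.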

How the data were processed

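The authors deposited FPKM values for 12760 genes, 1 column per library. Per the submitters' processing notes, the build was hg38 and the tools were featureCounts 2.0.3, HISAT2 2.2.1, edgeR 3.40.2 and FastQC 0.11.9, with no roles named. Annotation, filter and strand: not given in the sources used here. Log2(FPKM + 1) of the deposited values went unscaled into limma 3.58.1 (R 4.3.3, trended empirical Bayes), with group as the only term, for the 11276 genes whose mean was 1 FPKM or more. Tests were two-sided, with Benjamini-Hochberg adjustment over these genes and a threshold of 0.05. The procedure was tested on simulated data with 50 changed genes per size of change. It called 8% of them at 1.25-fold, 58% at 1.5-fold, 88% at 2-fold and 100% at 3-fold. Whole reads came from the FPKM steps of all 12760 genes (100% within 0.000141 of a read), and voom on them called 1764 genes. Other alternatives changed the pseudocount, filter, scaling, variance model, replicate block or libraries used. Positions came from GENCODE 29 and promoters from RefSeq (GRCh38.p14). Members, lists and alternatives were chosen with earlier results of these data known. Named were all members, called list genes (at most the 4 with the largest change per list), TRAF3, MAP3K14, NFKBIE, TNFAIP3, ICAM1 and the 5 genes most like CD40. The result of 1 called list gene is not reported here. Figures used matplotlib 3.10.9.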

Additional observations from a re-analysis of the deposited data

How the results depend on the processing

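Each tested member was refitted under 20 alternatives. CD40, NFKB2, RELB and TRAF2 kept their direction and their side of the threshold in all of them, although leaving out 1 library gave -0.1245 to -0.0141 for NFKB2 and 0.1013 to 0.321 for RELB. BIRC3 lost its call with WT replicates 1 and 2 averaged (log2 fold change -0.4173) and in 3 of the 6 fits with 1 library left out (-0.5218 to -0.3867 over all 6). NFKBIA passed without WT replicate 3 and LenR replicate 2 together (0.3888), in the fit with their own term (0.2853) and in 1 fit with 1 library left out (0.2272 to 0.3878 over all 6). Estimates near 0 changed sign. Leaving out 1 library gave -0.0821 to 0.043 for NFKB1, -0.0711 to 0.1607 for RELA, -0.0523 to 0.07 for BIRC2 and -0.0992 to 0.0938 for MAP3K14. With WT replicates 1 and 2 averaged, RELA was at -0.0415 and MAP3K14 at -0.0302, and without WT replicate 3 and LenR replicate 2 together, BIRC2 was at -0.0199 and MAP3K14 at -0.0235. The cause was not tested.

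Same-numbered WT and LenR libraries did not deviate together (correlations of 0.024, -0.557 and -0.683), so the numbers were not taken as pairs. No library correlated best with the same-numbered library of the other group. With the replicate number as a block, BIRC3 stayed at -0.4522 with a limma adjusted p of 0.0678, and 1 member, 12 other pathway genes and 907 genes in all passed. The 7 other pathway genes that lost their calls under the block were IL1RAP (0.0509), WNT10A (0.0621), PLEK (0.072), TNFRSF1B (0.088), TRAF3IP3 (0.155), GADD45B (0.181) and KLF6 (0.229). The main counts were 2, 19 and 1707. With WT replicates 1 and 2 averaged, 1 member and 1055 genes passed. Leaving out 1 library gave 1 to 3 members, 13 to 19 other pathway genes and 1006 to 1562 genes. In the fit giving WT replicate 3 and LenR replicate 2 a term, 34 other pathway genes and 3163 genes passed. At a mean of 5 FPKM or more, 1075 of 8310 tested genes passed. REL was recomputed only without the filter. Depth limits REL (32 to 70 reads per library), and no group was large enough for a check of single outlying libraries.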
